A study of Mus musculus with 6 samples.

Results

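Nucleolar ribosome biogenesis factors were examined in the colon epithelium of mice fed ursodeoxycholic acid (UDCA), a bile acid given as a drug in liver disease. The set is a list of 36 gene symbols of proteins that make, modify, cut or assemble ribosomal RNA. Probe sets were taken where the platform annotation gives 1 of these symbols, and where a gene had several, the one with the highest mean over the 6 arrays stood for it. By this rule 32 of the 36 genes were found, of 12393 named genes on the array. No probe set carried Dkc1, Npm3, Utp14a or Nob1 as its only symbol. Of the 32 genes, 31 lay above the filter on low signals and were tested among 6770 genes, and Rrp12 lay below it.

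The UDCA group was 3 arrays of mice whose diet contained 0.4% UDCA, and the control group was 3 arrays of mice on a standard diet. Each array held RNA of a pool of 2 animals, named by the animals' numbers as pool 1+2, 3+4 or 5+6 in each group, so 6 animals stand behind each group. The design text counts 6 samples a group but names these 3 pools. The sources used here give no strain, sex, age or length of feeding. The labels name mouse colon epithelium as the tissue and also carry a cell line tag, IEC-6, which is a rat intestinal line; the mouse tissue was taken as the source.

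Ribosomes are assembled in the nucleolus. RNA polymerase I transcribes a long precursor RNA, small nucleolar ribonucleoproteins (snoRNPs) guide its chemical modification, and the small subunit processome and the 60S assembly factors cut and fold it into the precursors of the 40S and 60S subunits. Many of these factors are known targets of the transcription factor MYC, and in the intestine they are known to be most abundant in the dividing cells of the crypts.

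The deposited signals had medians of 73.0, 87.3 and 68.2 on the arrays of UDCA pools 1+2, 3+4 and 5+6 and of 67.4, 75.1 and 84.0 on those of control pools 1+2, 3+4 and 5+6, so the arrays were not at 1 common level. They were quantile normalised, and every signal below is on that scale unless it is said to be as deposited. Probe sets differ in how strongly they bind, so each gene's signal is compared between arrays. The signals of marker lists that follow are levels, and differences between lists do not measure the share of a cell type. Surface colonocyte markers, with Car1 and Slc26a3 among them, had a median signal of 3766 in UDCA pools and 3351 in control pools, and goblet cell markers 5315 and 5457. Markers of fibroblasts, endothelium, and B and plasma cells were all below the filter, with median signals of 6.68 to 14.1 in UDCA pools and 7.76 to 15.1 in control pools. The same held for markers of tuft cells (18.6 in UDCA and 24.6 in control pools) and of pancreatic acinar cells (9.26 and 15.9). In all, 1 of 6770 genes passed the threshold, Apoc2, the gene of the activator of lipoprotein lipase, which is named here after its values were seen (log2 fold change 1.56, adjusted p = 0.01997 in limma). Of the marker lists for T and NK cells, myeloid cells and smooth muscle, 1 gene each lay above the filter.

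Of the 31 tested factors, 28 had a higher mean log2 signal in UDCA pools than in control pools, a share of 90.3%, where 50.2% of all tested genes did. Their median log2 fold change was 0.26, against 0.00 for all tested genes, and single values lay between -0.23 for Utp20 and 0.57 for Rrp9. None passed over all genes in limma (0 of 31, where 0.0148% of all genes passed), and the smallest adjusted p was 0.284, for Noc4l. At an unadjusted p under 0.05, 8 of 31 were higher in UDCA pools (25.8%, against 7.27% of all genes) and 0 were lower (7.13% of all genes). The 3 UDCA pools all lay above the 3 control pools for 9 of 31 factors (29.0%, against 11.1% of all genes), and 0 of 31 showed the opposite order (8.69% of all genes). As deposited, without normalisation, 30 of 31 factors had a positive value, with a median of 0.34. The median of all tested genes was then also above 0, at 0.08, and their share of positive values was not counted. As deposited the groups were apart for 1 factor, Noc4l (3.23%, against 3.59% of all genes). The 31 genes were not chosen as a random draw from the array and share the same 6 arrays, so these shares are descriptions with no test over the list. In bulk tissue, a change in the share of cells that express these genes and a change in RNA per cell cannot be told apart.

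**Figure D1:**
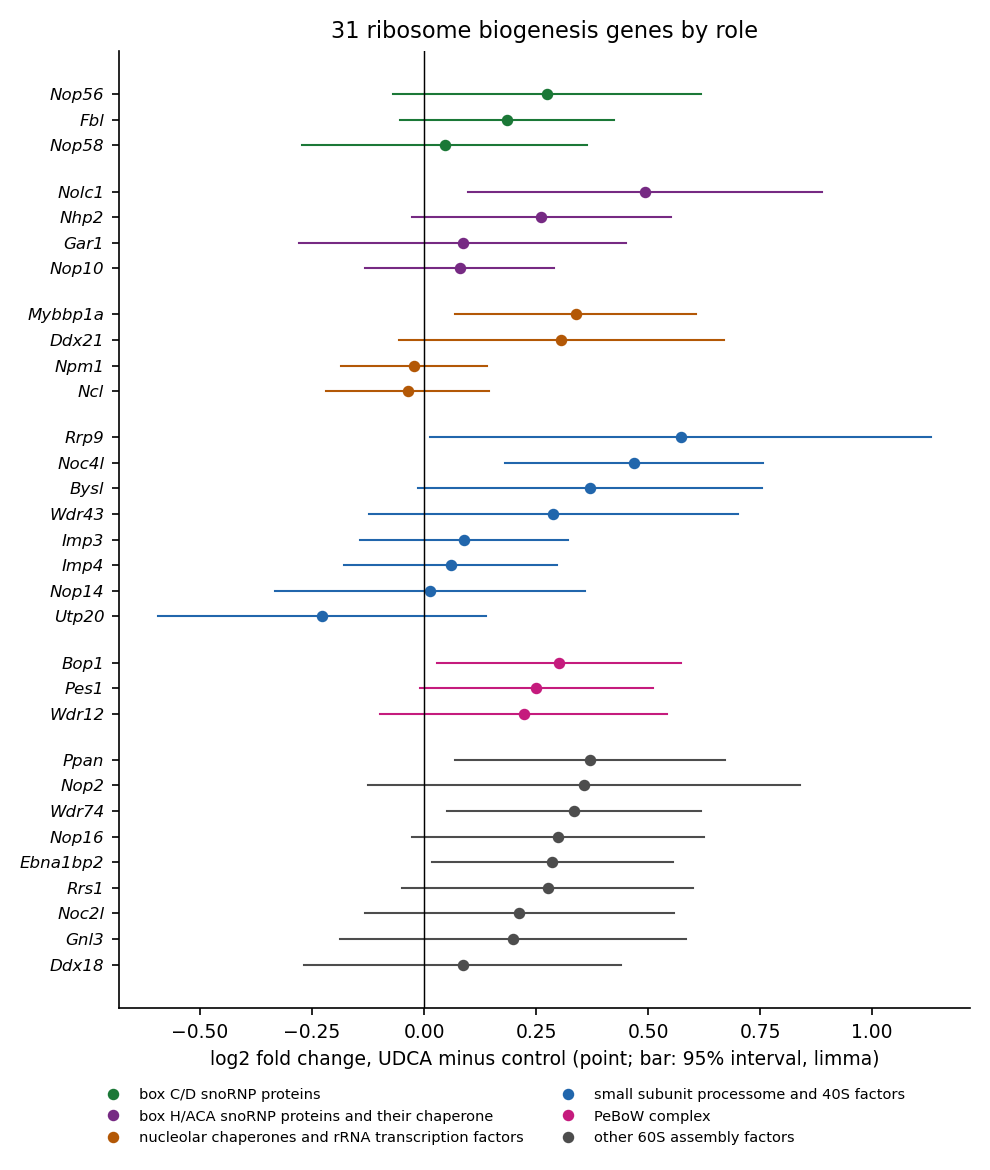
Log2 fold change of UDCA minus control for the 31 tested factors (points) with the 95% interval from limma (bars), grouped and coloured by role. Points of 28 factors lie right of 0, and the intervals of 23 include 0.

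The promoters of the factors were read for the E-box CACGTG, the site that MYC with its partner MAX is known to bind. RefSeq windows of GRCm38.p6, from 250 bases before to 50 after the annotated start, were matched by symbol for 31 of the 36 genes. CACGTG, which reads the same on both strands, stood in 6 of 31 (19.4%), against 8.09% of 27025 genes with a window. All 6 were among the 27 tested factors with a window (22.2%), against 12.9% of the 5597 tested genes with one. The variant CACGCG, read on both strands and not overlapping CACGTG in any of these windows, stood in 11 of 31 (35.5%), against 10.5% of all genes with a window. Among tested factors it stood in 10 of 27 (37.0%), against 21.2% of tested genes. A match is a description of the letters in this window and no evidence of binding. The windows with CACGTG are shown because they are the complete set among the tested factors, and those of Noc4l and Nolc1 because these genes had the smallest p-values among tested factors with a window and no CACGTG; capitals mark CACGTG.
Mybbp1a chr11:72441077-72441376 strand plus: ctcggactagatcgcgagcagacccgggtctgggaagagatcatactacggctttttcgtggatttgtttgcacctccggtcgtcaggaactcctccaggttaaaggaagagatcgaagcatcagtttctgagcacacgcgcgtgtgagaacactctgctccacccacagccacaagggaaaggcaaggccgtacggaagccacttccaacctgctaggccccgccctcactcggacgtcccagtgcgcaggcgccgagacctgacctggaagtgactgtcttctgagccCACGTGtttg
Pes1 chr11:3963725-3964024 strand plus: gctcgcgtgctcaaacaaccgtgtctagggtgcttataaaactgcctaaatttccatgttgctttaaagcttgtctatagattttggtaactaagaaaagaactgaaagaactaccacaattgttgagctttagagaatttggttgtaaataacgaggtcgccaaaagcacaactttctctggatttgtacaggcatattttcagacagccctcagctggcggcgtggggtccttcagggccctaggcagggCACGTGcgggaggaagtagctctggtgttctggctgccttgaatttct
Nop2 chr6:125131633-125131932 strand plus: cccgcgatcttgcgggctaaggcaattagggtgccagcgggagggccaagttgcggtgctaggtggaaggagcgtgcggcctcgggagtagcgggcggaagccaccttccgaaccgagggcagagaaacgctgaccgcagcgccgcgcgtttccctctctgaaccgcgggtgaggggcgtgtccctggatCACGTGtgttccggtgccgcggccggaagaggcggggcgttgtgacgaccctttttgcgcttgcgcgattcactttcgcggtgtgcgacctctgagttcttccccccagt
Wdr43 chr17:71615965-71616264 strand plus: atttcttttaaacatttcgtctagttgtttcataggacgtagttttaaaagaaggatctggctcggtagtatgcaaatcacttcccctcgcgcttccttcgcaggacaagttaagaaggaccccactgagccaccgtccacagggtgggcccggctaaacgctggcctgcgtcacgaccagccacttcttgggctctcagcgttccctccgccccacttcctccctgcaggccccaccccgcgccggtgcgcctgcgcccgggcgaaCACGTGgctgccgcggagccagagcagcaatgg
Imp4 chr1:34439579-34439878 strand plus: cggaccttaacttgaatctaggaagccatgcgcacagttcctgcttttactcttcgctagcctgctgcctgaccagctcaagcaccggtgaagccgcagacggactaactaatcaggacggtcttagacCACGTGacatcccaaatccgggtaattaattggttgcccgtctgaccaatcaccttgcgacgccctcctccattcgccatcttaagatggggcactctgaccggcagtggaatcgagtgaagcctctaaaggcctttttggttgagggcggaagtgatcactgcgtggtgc
Utp20 chr10:88826765-88827064 strand minus: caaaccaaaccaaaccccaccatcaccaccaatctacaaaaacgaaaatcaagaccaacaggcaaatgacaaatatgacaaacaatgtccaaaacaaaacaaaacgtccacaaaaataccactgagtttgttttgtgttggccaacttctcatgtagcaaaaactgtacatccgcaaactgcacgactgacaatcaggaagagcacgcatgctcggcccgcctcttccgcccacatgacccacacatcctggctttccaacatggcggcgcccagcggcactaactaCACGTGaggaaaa
Noc4l chr5:110653333-110653632 strand minus: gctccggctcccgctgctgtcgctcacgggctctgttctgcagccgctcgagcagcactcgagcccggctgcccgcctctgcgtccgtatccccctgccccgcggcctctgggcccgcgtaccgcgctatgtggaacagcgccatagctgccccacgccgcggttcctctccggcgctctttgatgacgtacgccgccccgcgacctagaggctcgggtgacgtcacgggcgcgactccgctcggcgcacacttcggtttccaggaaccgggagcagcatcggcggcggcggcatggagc
Nolc1 chr19:46075597-46075896 strand plus: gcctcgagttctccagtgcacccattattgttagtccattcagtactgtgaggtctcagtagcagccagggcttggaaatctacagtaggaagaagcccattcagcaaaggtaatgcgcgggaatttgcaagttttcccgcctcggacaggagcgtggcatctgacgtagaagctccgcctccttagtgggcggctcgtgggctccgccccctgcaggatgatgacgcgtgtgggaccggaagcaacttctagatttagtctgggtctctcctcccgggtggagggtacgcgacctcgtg

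The E-box began 60 bases before the start in Nop2 and 121 before it in Imp4, and 2, 17, 37 and 40 bases after it in Pes1, Wdr43, Utp20 and Mybbp1a. The genes with it did not share 1 level of difference. Their log2 fold changes were 0.36 for Nop2, 0.34 for Mybbp1a, 0.29 for Wdr43, 0.25 for Pes1, 0.06 for Imp4 and -0.23 for Utp20. Whether factors with and without the E-box differed was not tested.

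The box C/D snoRNP proteins carry out ribose methylation of ribosomal RNA, with Fbl (fibrillarin) as the methyltransferase and Nop56 and Nop58 as the paired core proteins. None of the 3 passed in limma, also not at an unadjusted p under 0.05 (0 of 3). Nop56 had signals of 440.3, 535 and 368 in UDCA pools 1+2, 3+4 and 5+6, against 373, 323 and 397 in control pools 1+2, 3+4 and 5+6. UDCA pool 3+4 was the highest of the 6 arrays, while UDCA pool 5+6 lay among the controls, with a log2 fold change of 0.27 ± 0.15 (SE), adjusted p = 0.433 in limma. Fbl had signals of 1218, 1179 and 1076 in the UDCA pools, against 1134, 941 and 979.5 in the control pools. UDCA pool 5+6 lay below control pool 1+2, so the groups overlapped, with a log2 fold change of 0.19 ± 0.10 (SE), adjusted p = 0.448 in limma. Nop58, the partner of Nop56, averaged 314 ± 36.5 in UDCA pools and 305 ± 47.9 in control pools (SD, n = 3 each), a difference smaller than the spread of the pools, and its 95% interval ran from -0.27 to 0.36 on the log2 scale.

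The box H/ACA snoRNP proteins turn uridine into pseudouridine in ribosomal RNA and also belong to telomerase, and Nolc1 (Nopp140) is a chaperone of snoRNPs in the nucleolus. Nolc1 had signals of 278, 372 and 232 in the UDCA pools, against 211, 174 and 219 in the control pools. All 3 UDCA pools lay above all 3 control pools, although UDCA pool 5+6 exceeded control pool 5+6 by little, and it had a log2 fold change of 0.49 ± 0.17 (SE), adjusted p = 0.315 in limma. Its other probe sets above the filter had log2 fold changes of 0.29 and 0.68.

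Of the H/ACA core proteins, Nhp2 had signals of 1280.4, 1219 and 1257 in the UDCA pools, against 1168, 854 and 1132 in the control pools. The UDCA pools were all above the control pools and close to each other, and control pool 3+4 was far below the rest, with a log2 fold change of 0.26 ± 0.13 (SE), adjusted p = 0.392 in limma. Without control pool 3+4 the value was 0.12. Nop10, a very small core protein, had signals of 1755, 1920.0 and 1779.6 in the UDCA pools, against 1898, 1587 and 1686 in the control pools. These ranges overlapped widely, and the log2 fold change was 0.08 (95% interval -0.13 to 0.29). A second Nop10 probe set above the filter had 0.22 (limma adjusted p = 0.365). Gar1, which completes the particle, averaged 617 ± 113 in UDCA pools and 577 ± 78.3 in control pools (SD, n = 3 each), and its UDCA pools spread from 495 to 718.

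The group of nucleolar chaperones and factors of ribosomal RNA transcription held the 2 abundant nucleolar proteins nucleolin (Ncl) and nucleophosmin (Npm1) beside Mybbp1a, a Myb-binding protein of the nucleolus, and Ddx21, a helicase of ribosomal RNA transcription and processing. Mybbp1a had signals of 696, 711 and 566 in the UDCA pools, against 494, 505 and 546 in the control pools. The groups did not overlap, with UDCA pool 5+6 nearest to the controls, and it had a log2 fold change of 0.34 ± 0.12 (SE), adjusted p = 0.315 in limma. The other Mybbp1a probe set above the filter had a smaller value of 0.11 (limma adjusted p = 0.761), and the mean of its probe sets gave 0.23. Ddx21 averaged 267 ± 50.4 in UDCA pools and 212 ± 29.9 in control pools (SD, n = 3 each), with a log2 fold change of 0.31 ± 0.16 (SE), adjusted p = 0.414 in limma, and UDCA pool 5+6 (216) lay below control pool 5+6 (244).

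The values of Npm1 and Ncl lay near 0. Npm1 had signals of 3157, 3205 and 3428 in the UDCA pools, against 3542, 3248 and 3159 in the control pools, and its lowest pool was UDCA pool 1+2 and its highest control pool 1+2. Its log2 fold change was -0.02 (95% interval -0.18 to 0.14) after quantile normalisation, 0.12 as deposited and 0.11 with each array centred on its median. Ncl averaged 2727 ± 214 in UDCA pools and 2793 ± 127 in control pools (SD, n = 3 each), with a log2 fold change of -0.04 (95% interval -0.22 to 0.15) that was likewise 0.11 as deposited. A second Npm1 probe set had 0.00, and 3 further Ncl probe sets had 0.01, 0.05 and 0.26.

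**Figure D2:**
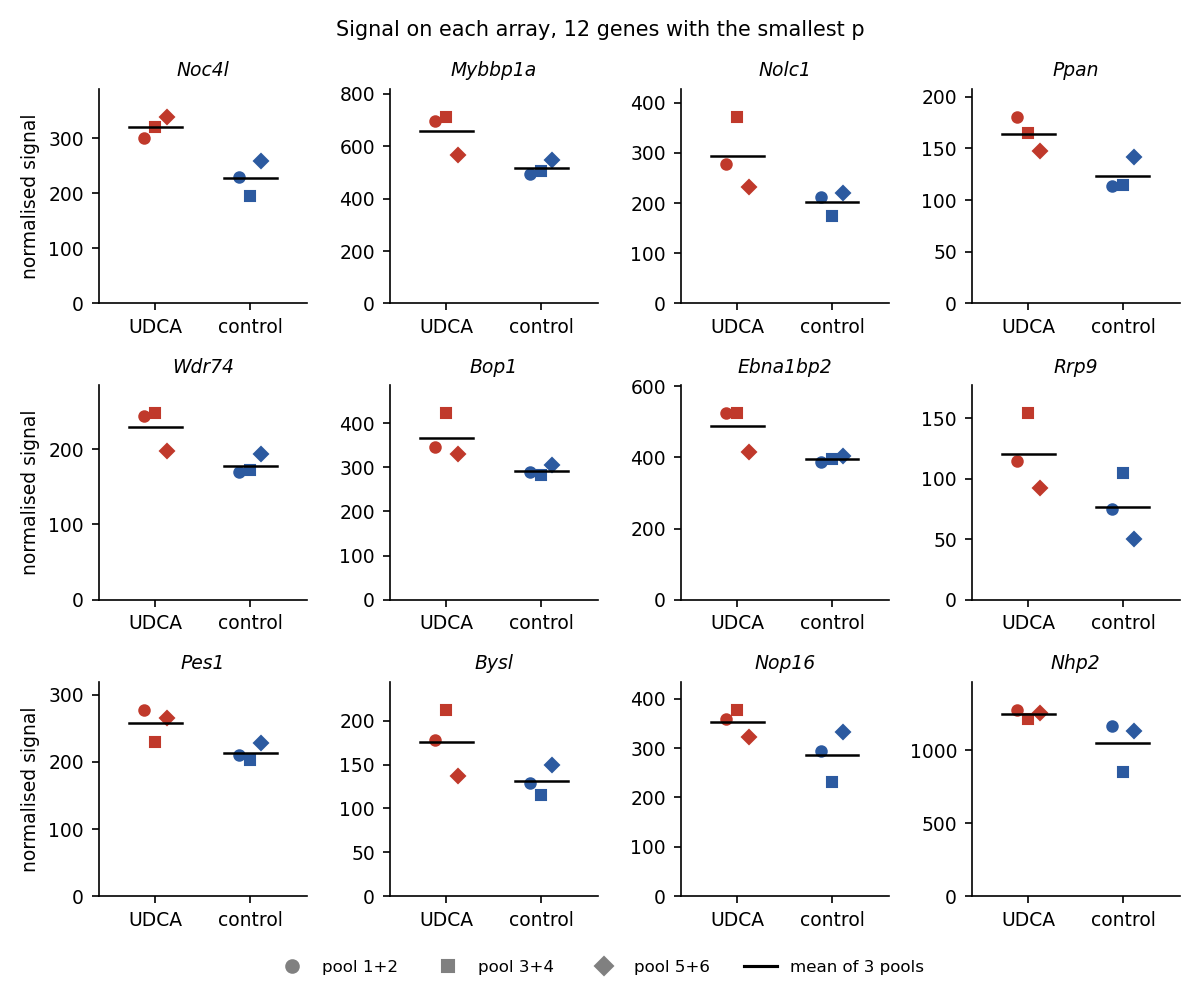
Normalised signal on each array for the 12 factors with the smallest p, with UDCA pools (red) left of control pools (blue), a symbol for each pool number and a bar at the mean of 3 pools; each axis starts at 0. In 9 panels, Noc4l, Mybbp1a, Nolc1, Ppan, Wdr74, Bop1, Ebna1bp2, Pes1 and Nhp2, all UDCA pools lie above all control pools.

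Among the factors of the small subunit, 7 of 8 tested genes were higher in UDCA pools by their log2 mean, and the median log2 fold change was 0.19. Noc4l, which works with Nop14 in making the 40S subunit, had signals of 300.3, 321 and 339 in the UDCA pools, against 230.2, 194 and 259.7 in the control pools. Every UDCA pool was above every control pool, also as deposited, and UDCA pool 5+6 was the highest, unlike in most of the set. It had a log2 fold change of 0.47 ± 0.13 (SE), adjusted p = 0.284 in limma, and its other probe sets above the filter had 0.20 and 0.48. Nop14, its partner, averaged 100.2 ± 20.2 in UDCA pools and 97.9 ± 1.44 in control pools (SD, n = 3 each), a log2 fold change of 0.01 with a 95% interval of -0.33 to 0.36.

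Rrp9, a protein specific to the U3 snoRNP, had the widest interval of the set. Its signals were 115, 154 and 92.1 in the UDCA pools, against 74.7, 105 and 50.6 in the control pools. Control pool 3+4 lay above UDCA pool 5+6 and control pool 5+6 was the lowest array, so the groups overlapped, with a log2 fold change of 0.57 ± 0.24 (SE), adjusted p = 0.359 in limma. It was 0.39 with a pseudocount of 64 and 0.35 without control pool 5+6, in both cases below the values of Noc4l and Nolc1. Bysl (bystin), needed for late steps of 40S maturation, had signals of 178, 213 and 138 in the UDCA pools, against 129, 115 and 149.8 in the control pools. UDCA pool 5+6 lay within the control range, and it had a log2 fold change of 0.37 ± 0.17 (SE), adjusted p = 0.382 in limma. Wdr43, a processome subunit whose promoter window holds the E-box shown above, averaged 254 ± 50.9 in UDCA pools and 206 ± 44.2 in control pools (SD, n = 3 each), with a log2 fold change of 0.29 ± 0.18 (SE), adjusted p = 0.486 in limma.

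Values of the U3-associated proteins Imp3 and Imp4 lay near 0. Imp3 had signals of 642, 601 and 587 in the UDCA pools, against 533, 571 and 616 in the control pools, ranges that overlapped, with a log2 fold change of 0.09 ± 0.10 (SE), adjusted p = 0.699 in limma. Imp4 averaged 362 ± 23.3 in UDCA pools and 346 ± 20.2 in control pools (SD, n = 3 each), with a 95% interval of -0.18 to 0.30 on the log2 scale. Utp20, a very large scaffold protein of the processome, was lower in UDCA pools by its mean. Its signals were 350.5, 359 and 464 in the UDCA pools, against 439.8, 390.5 and 556 in the control pools, and the groups overlapped, with a log2 fold change of -0.23 ± 0.16 (SE), adjusted p = 0.531 in limma. Rrp12, known in yeast for export of subunits from the nucleus, had signals of 46.9, 79.9 and 48.2 in the UDCA pools, against 40.4, 50.6 and 53.0 in the control pools, too low for the test.

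The PeBoW complex of Pes1, Bop1 and Wdr12 is required for processing of the RNA of the 60S subunit, and its 3 subunits had similar values. Bop1 had signals of 347, 422 and 330.2 in the UDCA pools, against 289, 283 and 306 in the control pools. The groups did not overlap, and it had a log2 fold change of 0.30 ± 0.12 (SE), adjusted p = 0.336 in limma. Pes1 had signals of 278, 229 and 265 in the UDCA pools, against 210.3, 202 and 228 in the control pools. UDCA pool 3+4 (229), low here while high in most of the set, lay just above control pool 5+6 (228), and it had a log2 fold change of 0.25 ± 0.11 (SE), adjusted p = 0.382 in limma. Wdr12 averaged 106 ± 7.83 in UDCA pools and 89.4 ± 13.7 in control pools (SD, n = 3 each), with a log2 fold change of 0.22 ± 0.14 (SE), adjusted p = 0.488 in limma, and its groups overlapped.

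All 9 other 60S assembly factors had positive values, and their median log2 fold change of 0.29 was the highest of the 6 role groups. Ppan, the relative of the yeast 60S factor Ssf1, had signals of 180.3, 165 and 148 in the UDCA pools, against 114, 115 and 142 in the control pools. The groups did not overlap, and it had a log2 fold change of 0.37 ± 0.13 (SE), adjusted p = 0.316 in limma. Wdr74, which works with an ATPase that releases factors from the precursor particle, had signals of 244, 247 and 197 in the UDCA pools, against 169.8, 172 and 193 in the control pools. UDCA pools 1+2 and 3+4 were well above the controls, UDCA pool 5+6 was just above them, and it had a log2 fold change of 0.33 ± 0.12 (SE), adjusted p = 0.318 in limma. Ebna1bp2, whose yeast relative is the 60S factor Ebp2, had signals of 524, 524 and 416 in the UDCA pools, against 387, 395 and 402 in the control pools. Its control pools lay close together and UDCA pool 5+6 was near them, with a log2 fold change of 0.29 ± 0.12 (SE), adjusted p = 0.352 in limma.

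Nop16, known from yeast as a 60S factor, had signals of 359, 378 and 323 in the UDCA pools, against 295, 232 and 332 in the control pools. UDCA pool 5+6 lay below control pool 5+6, so the groups overlapped, with a log2 fold change of 0.30 ± 0.14 (SE), adjusted p = 0.387 in limma. Rrs1, which helps to bring the 5S RNA into the particle, had signals of 537, 546 and 484 in the UDCA pools, against 423, 358 and 518 in the control pools. The same 2 pools overlapped there, with a log2 fold change of 0.28 ± 0.14 (SE), adjusted p = 0.411 in limma. Nop2, a methyltransferase of ribosomal RNA whose window holds the E-box, averaged 207 ± 65 in UDCA pools and 153 ± 12.5 in control pools (SD, n = 3 each), and UDCA pool 5+6 (135) was its lowest array, with a log2 fold change of 0.36 ± 0.21 (SE), adjusted p = 0.463 in limma.

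The last 3 of the 60S factors had smaller values. Noc2l, Gnl3 (nucleostemin, a nucleolar GTPase of dividing cells) and Ddx18, a helicase, had log2 fold changes of 0.21, 0.20 and 0.09, with overlapping groups and limma adjusted p-values of 0.534, 0.604 and 0.824. A second probe set of Ddx18 gave 0.37 (limma adjusted p = 0.321).

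The factors varied together between arrays of the same group. UDCA pool 3+4 held the highest of the 6 values for 22 of 31 factors, and control pool 3+4 the lowest for 17. Relative to each gene's mean over the 6 arrays, the median of the 31 factors was 0.13, 0.25 and -0.03 log2 units in UDCA pools 1+2, 3+4 and 5+6, against -0.14, -0.20 and -0.01 in control pools 1+2, 3+4 and 5+6. For all tested genes the same medians lay between -0.01 and 0.01. UDCA pool 5+6 and control pool 5+6 thus met near the middle: 17 of 31 factors were lower in UDCA pool 5+6 than in control pool 5+6, while 29 were higher in UDCA pool 3+4 than in control pool 3+4. The pool numbers name different animals in the 2 groups.

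**Figure D3:**
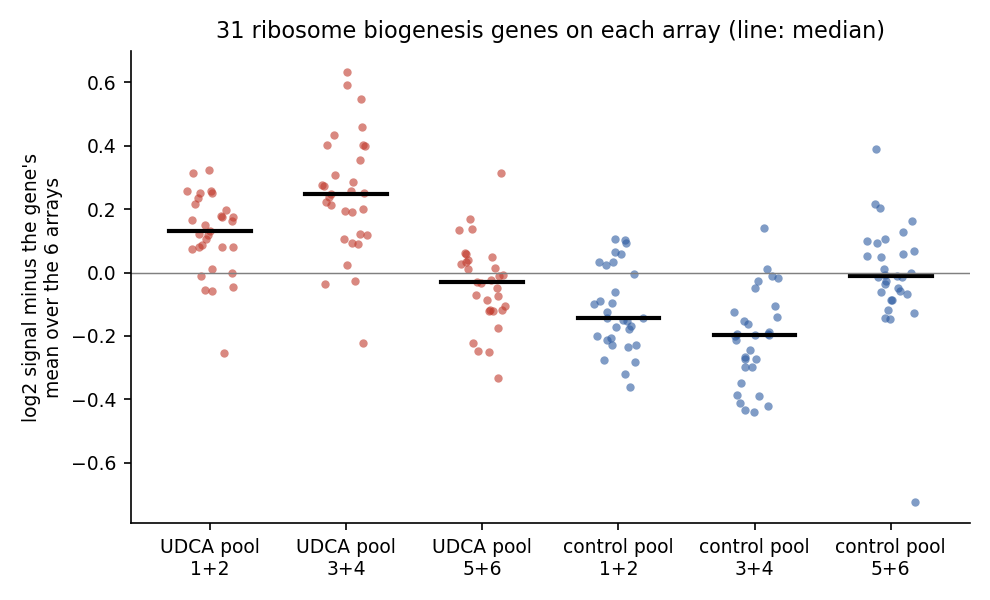
Log2 signal of each of the 31 factors minus that gene's mean over the 6 arrays, by array, with UDCA pools (red) left of control pools (blue) and a line at the median. The medians are highest in UDCA pool 3+4 (0.25) and lowest in control pool 3+4 (-0.20), and the pools numbered 5+6 meet near 0.

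Single pools set how many factors were apart. Without UDCA pool 5+6, the groups did not overlap, with UDCA higher, for 21 of 31 factors (67.7%, against 19.4% of all genes with that pool left out), and without control pool 5+6 for 17 (54.8%, against 20.6%). Groups of 2 against 3 separate more often than 3 against 3 in any gene, and with any other pool left out 9 to 11 factors were apart, against 14.2% to 16.2% of all genes. The count at an unadjusted p under 0.05, 8 with all pools, dropped to 2 when control pool 3+4 was left out, to 3 when either UDCA pool 1+2 or UDCA pool 3+4 was, and to 4 when control pool 1+2 was. With these 4 pools left out in turn the share of all genes was 3.74% to 4.80%. The count was 13 when UDCA pool 5+6 was left out, against 8.89% of all genes. The median log2 fold change was 0.17 with either pool numbered 3+4 left out, and 0.33 with UDCA pool 5+6 left out. Among genes described above by array, leaving out control pool 3+4 gave 0.16 for Nop16, 0.15 for Rrs1 and 0.02 for Nop10. Leaving out UDCA pool 3+4 gave 0.14 for Nop56, 0.32 for Nolc1, 0.23 for Bysl and 0.20 for Bop1, and the values of Npm1 and Imp3, near 0 throughout, moved with several pools.

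Most factors with several probe sets gave 1 direction. Of 17 further probe sets above the filter, in 13 genes, 13 had the sign of the probe set used here. The exceptions were the further probe sets of Ncl and Npm1. Those not given above had 0.33 for Nop56, 0.32 for Fbl, 0.28 for Nhp2, 0.49 for Ddx21, 0.46 for Bysl and 0.17 for Wdr43. Their limma adjusted p-values ran from 0.310 to 0.546.

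Ribosome biogenesis genes outside the set were read from lists by role. None of the other small subunit factors passed (0 of 38 in limma), 30 of 38 had positive values, the median was 0.15 on the log2 scale, and 11 were higher and 0 lower at an unadjusted p under 0.05 (28.9% higher, against 7.27% of all genes). Rrp36, Rrp7a, Pno1 and Aatf had 0.41, 0.48, 0.37 and 0.42, each with groups that did not overlap and limma adjusted p-values from 0.270 to 0.317. Rrp7a had signals of 209, 192 and 176 in the UDCA pools, against 122, 149.6 and 128 in the control pools, the UDCA pools all above the control pools. None of the other large subunit factors passed (0 of 39 in limma), 32 of 39 were positive, the median was 0.16, and 14 were higher and 0 lower at an unadjusted p under 0.05 (35.9% higher, against the same 7.27%). Ftsj3, a methyltransferase of the precursor RNA, had signals of 152, 165 and 139.7 in the UDCA pools, against 109.8, 99.3 and 93 in the control pools, groups that did not overlap, and a log2 fold change of 0.53 ± 0.12 (SE), adjusted p = 0.264 in limma. Lsg1, a GTPase of cytoplasmic 60S maturation, Rsl1d1 and Nifk had 0.50, 0.40 and 0.40. The groups were apart, with UDCA higher, for 12 of the 38 (31.6%) and 17 of the 39 (43.6%), against 11.1% of all genes. As deposited they were apart for 4 of the 38 and 4 of the 39 (10.5% and 10.3%, against 3.59% of all genes).

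Accessory machinery had medians from 0.09 to 0.13. At an unadjusted p under 0.05, 14.3% of the snoRNP assembly factors, 0% of the exosome genes and 12.5% of the polymerase genes were higher. The share of all genes was 7.27%. Of 7 snoRNP assembly factors 6 were positive, with a median of 0.12, 0 that passed in limma and 1 at an unadjusted p under 0.05, the ATPase Ruvbl1 (0.42), while Ruvbl2, Tcof1 and Znhit3 had 0.18, 0.16 and 0.12. Of 11 genes of the RNA exosome, which trims the precursors, 10 were positive, with a median of 0.13 and 0 that passed in limma and 0 at an unadjusted p under 0.05. Exosc4, C1d, Exosc1 and Dis3 had 0.30, 0.25, 0.30 and 0.23. Of 16 genes of the RNA polymerase I machinery 11 were positive, with a median of 0.09, 0 that passed in limma and 2 at an unadjusted p under 0.05, the subunits Polr1e and Polr2f (0.40 and 0.27). Ttf1 had 0.28 and Ubtf, which binds the ribosomal RNA genes, had -0.26. The groups were apart, with UDCA higher, for 1 of the 7 assembly factors (14.3%), 3 of the 11 exosome genes (27.3%) and 5 of the 16 polymerase genes (31.2%), against 11.1% of all genes.

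Cytosolic ribosomal proteins are the parts that the factors assemble with the RNA. Of 44 tested genes of these proteins 26 were positive (41 as deposited), with a median log2 fold change of 0.01 (0.12 as deposited), and single values ran from -0.17 to 0.30. None passed (0 of 44 in limma), and at an unadjusted p under 0.05 the count was 0, where 7.27% of all genes were higher and 7.13% lower. Rps14, Rps18, Rpl13a and Rpl35 had 0.09, 0.10, 0.07 and 0.08. The difference between this list and the ribosome biogenesis factors was not tested. For 37 of the 82 listed ribosomal protein genes no probe set carried the symbol alone.

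The MYC network, which regulates many of these genes, had values of both signs, with 5 of 10 positive and a median of 0.03. None passed (0 of 10 in limma), and 1 was lower at an unadjusted p under 0.05 (10%, against 7.13% of all genes). Mnt, a MAX partner that opposes MYC, had signals of 97.1, 105 and 92.8 in the UDCA pools, against 179.8, 208 and 107 in the control pools, with UDCA pools all below the control pools and a log2 fold change of -0.62 ± 0.21 (SE), adjusted p = 0.314 in limma. Mlx, Mxd3 and Mxi1 had 0.25, -0.22 and 0.10. Myc itself, named after its values were seen, had signals of 331, 213 and 251 in the UDCA pools, against 237, 216 and 300.2 in the control pools, and the groups overlapped.

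**Figure D4:**
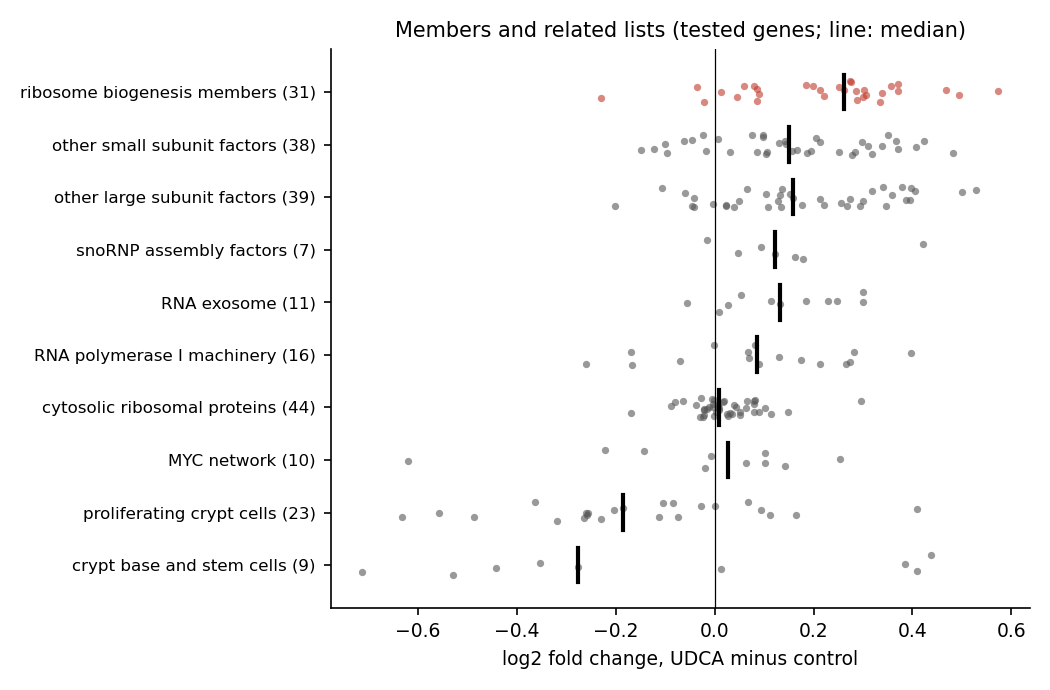
Log2 fold change of UDCA minus control for tested genes of the set (red) and of related lists (grey), with the number of genes in brackets and a line at each median. The median of the set is 0.26, those of the other small and large subunit factors are 0.15 and 0.16, that of ribosomal proteins is 0.01 and that of proliferating crypt cell genes is -0.19.

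Markers of dividing crypt cells, in which these factors are known to be abundant, were mostly lower in UDCA pools by their means. Of 23 tested genes of proliferating crypt cells 6 were positive (9 as deposited), with a median log2 fold change of -0.19 (-0.08 as deposited), and their summed signal was 13977 to 17135 in UDCA pools and 14735 to 21005 in control pools. None passed (0 of 23 in limma), and 1 was lower at an unadjusted p under 0.05 (4.35%, against 7.13% of all genes). Mki67, a marker of cycling cells, had signals of 1157, 871 and 1295 in the UDCA pools, against 1919, 1364 and 1609 in the control pools, with all UDCA pools below all control pools and a log2 fold change of -0.56 ± 0.17 (SE), adjusted p = 0.303 in limma. Nusap1, Top2a and Aurkb had -0.63, -0.49 and -0.36, with overlapping groups. The 6 positive genes, named after their values were seen, also had overlapping groups. They were Rrm2 (0.41), Mcm3 (0.16), Mcm5 (0.11), Mcm2 (0.09), Mcm4 (0.07) and Aurka (0.00). Relative to each gene's mean, the median of this list was 0.00, -0.46 and 0.04 log2 units in UDCA pools 1+2, 3+4 and 5+6, against 0.29, -0.24 and 0.14 in control pools 1+2, 3+4 and 5+6. UDCA pool 3+4, the highest array for 22 of the 31 ribosome biogenesis factors, thus had the lowest median of the cell cycle list. This did not hold for every gene of the list. Mcm2, Mcm3, Mcm4 and Mcm5 had their highest signals in UDCA pool 3+4, at 391, 616, 634 and 534. Without UDCA pool 3+4 the median of the cell cycle list was -0.05, and without control pool 1+2 it was -0.04.

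Of 9 crypt base and stem cell genes 4 were positive, with a median of -0.28 (0.04 over the genes in the upper 25% by mean). None passed (0 of 9 in limma), and 3 were lower at an unadjusted p under 0.05 (33.3%, against 7.13% of all genes). Lgr5, the stem cell marker, had signals of 103, 83.6 and 115 in the UDCA pools, against 144, 148 and 131 in the control pools, with all UDCA pools below all control pools and a log2 fold change of -0.44 ± 0.14 (SE), adjusted p = 0.314 in limma. Their summed signal was 2162 to 3013 in UDCA pools and 2271 to 2518 in control pools. Rnf43, Sox9 and Prom1 had -0.71, -0.53 and 0.44. The median of this list was -0.07 without UDCA pool 3+4. Surface colonocyte and goblet cell lists had medians of 0.01 over 12 genes, 7 of them positive, and 0.05 over 9, 5 of them positive. Single values ran from -0.49 for Car4 to 2.77 for Tmigd1, and from -0.25 for Tff3 to 2.61 for Retnlb. The UDCA pools all lay above the control pools for Tmigd1 and Retnlb. They all lay below them for Tff3, though not as deposited, and the groups overlapped for Car4. The values of Tmigd1 and Retnlb rest on dim control arrays. Control pools 1+2 and 3+4 had 30.6 and 55.1 for Tmigd1 and 3.7 and 66.9 for Retnlb, where the filter on mean signal lay at 75.99. In Tmigd1, UDCA pool 5+6 (350.5) was little above control pool 5+6 (313), and as deposited its groups overlapped. Of 6 tested enteroendocrine genes 3 were higher and 2 lower at an unadjusted p under 0.05, and 0 passed in limma. These were 50% higher and 33.3% lower, against 7.27% and 7.13% of all genes. The hormone genes Gcg and Insl5 had 1.10 and 0.80, and the granule protein genes Chga and Chgb had -0.55 and -0.42, each with groups that did not overlap. Pyy and Tac1, the rest of the tested list and named after their values were seen, had 0.37 and -0.70. Their groups were not apart. The summed signal of the enteroendocrine list was 3713 to 4775 in UDCA pools and 3350.4 to 3813 in control pools. The part of cell makeup in the values of the ribosome biogenesis factors was not tested.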

How the data were processed

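Trizol-extracted total RNA (3 µg) was turned into biotinylated cRNA for the arrays, per the labels' protocols. The deposited table, made by the authors with GCOS per the submitters' processing notes, holds 1 linear signal intensity for each of 22690 probe sets, 64 of them Affymetrix controls. The software's version and scaling were not given in the sources used here. A second deposited table of group averages was not used.

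The 6 arrays were quantile normalised, because their deposited levels differed. Then log2(signal + 16) was tested with limma 3.58.1 in R 4.3.3 (lmFit, eBayes with an intensity trend, two-sided). Benjamini-Hochberg adjustment ran over the 11313 probe sets in the brighter 50%, and the threshold was 0.05. On this scale the differences of dim genes come out too small. P-values measure the spread between 3 pools a group, and the number of arrays limits the precision. The platform annotation gave 1 symbol to 20393 probe sets, several to 691, and did not list 1606. The fit was tested on simulated data, where 26.2% of the smallest changes put in passed the threshold. Those changes were larger than the factors' median log2 fold change of 0.26.

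Values on every array are given for the 12 factors with the smallest p, and for those with the smallest p or the brightest probe set of each role. Other factors are given by means, fold changes or counts, and each other list by up to 4 genes with the smallest p. The members, lists, normalisation and rules were chosen with earlier results of these data known. Alternatives covered the scaling, the pseudocount (1 and 64), the filter, the variance model, array weights, a block for pool number, averaging a gene's probe sets, a threshold of 0.1 and each pool left out in turn.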

Additional observations from a re-analysis of the deposited data

How the results depend on the processing

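None of the 31 factors passed the threshold in limma under any of the 18 alternatives, at which 2 to 14 were higher at an unadjusted p under 0.05. The share of all genes that were higher at this p was 3.74% to 13.1% over the alternatives. Of the 31, 25 kept their sign under all of them that tested it, 24 positive and 1 negative; Nop58, Gar1, Ncl, Npm1, Nop14 and Ddx18 did not. Npm1 had 0.12 as deposited, 0.11 with each array centred, 0.0011 without UDCA pool 1+2 and 0.025 without control pool 1+2, against -0.02 with all pools, and -0.058 to 0.025 over the 6 fits with 1 pool left out. The causes were not tested.

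The count of all genes past the threshold was 1, against 54 as deposited (37 higher, 17 lower), 0 with no filter, 0 for the upper 25% by mean and 0 with the replicate block of the pool number; it was 0 to 22 with 1 pool left out (22 without control pool 5+6, 4 without UDCA pool 5+6, 0 without any other). Arrays with the same pool number deviated from their group means with correlations of -0.10, 0.16 and 0.05 for pools 1+2, 3+4 and 5+6, and not every array correlated best with its own number; the pools hold different animals, so the numbers were not taken as pairs. The replicate block left 6 factors higher at an unadjusted p under 0.05 (19.4%, against 6.5% of all genes), where the main setting had 8 (25.8%, against 7.27%). That count was 3 as deposited (9.68%, against 4.68% of all genes) and 14 with centred arrays (45.2%, against 13.1%). For the upper 25% it was 3 (17.6%, against 7.06%), and 14 of 17 tested factors were positive there. With 1 pool left out it was 2 to 13 (6.45% to 41.9%, against 3.74% to 9.25% of all genes). Factors with UDCA pools all above control pools numbered 1 as deposited (3.23%, against 3.59% of all genes), 4 for the upper 25% (23.5%, against 11.2%) and 9 to 21 with 1 pool left out (29.0% to 67.7%, against 14.2% to 20.6%). The upper 25% tests fewer factors. The median log2 fold change of the factors was 0.17 to 0.34 over all alternatives. As deposited the median of all genes was 0.08. Signal over background limits Rrp12 and other dim probe sets, which have no detection call here.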

Other observations

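Genes of cell growth outside the nucleolus, from a list chosen with earlier results known, were read beside the ribosome biogenesis factors. Of 23 tested genes 21 had positive values, the median log2 fold change was 0.20 (0.34 as deposited), 0 passed in limma and 9 were higher and 0 lower at an unadjusted p under 0.05, where 7.27% of all genes were higher. Shmt2, a mitochondrial enzyme of serine and folate metabolism, had signals of 329.9, 323 and 300.5 in the UDCA pools, against 214, 215 and 253 in the control pools, with all UDCA pools above all control pools and a log2 fold change of 0.46 ± 0.11 (SE), adjusted p = 0.264 in limma. Tfrc, the transferrin receptor, had signals of 4185, 2810.0 and 2426 in the UDCA pools, against 1395, 1296 and 2356 in the control pools, and a log2 fold change of 0.91 ± 0.25 (SE), adjusted p = 0.288 in limma, with UDCA pool 5+6 just above control pool 5+6. Hspe1, a mitochondrial chaperonin, and Mthfd2, a mitochondrial folate enzyme, had 0.34 and 0.47 on the log2 scale, and in both genes every UDCA pool lay above every control pool. The groups were apart, with UDCA higher, for 7 of the 23 genes (30.4%, against 11.1% of all genes). As deposited they were apart for 1, Shmt2 (4.35%, against 3.59% of all genes). CACGTG stood in the promoter window of 8 of 25 genes of this list (32.0%), against 8.09% of all genes with a window and 12.9% of tested genes with one.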
